A study of Rattus norvegicus with 36 samples.

Results

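Transcripts of 5 genes by which astrocytes are recognised were followed in the nucleus accumbens of 9 rats: the glutamate transporters Slc1a2 (ENSRNOG00000005479) and Slc1a3 (ENSRNOG00000016163), the calcium-binding protein gene S100b (ENSRNOG00000001295), the water channel gene Aqp4 (ENSRNOG00000016043) and the intermediate filament gene Gfap (ENSRNOG00000002919). They were picked by their Ensembl IDs, which are 5 of the 31546 IDs in the count files. All 5 had reads in every rat and all 5 were among the 16029 genes with enough counts to be tested. The names came with the definition of the gene set: neither the count files nor the RefSeq gene table used here pairs these IDs with names, so the pairing was not checked against an annotation.

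Astrocytes clear synaptically released glutamate through GLT-1, the protein of Slc1a2, and GLAST, the protein of Slc1a3, and GLT-1 carries most of this uptake in the adult forebrain. Aqp4 encodes the water channel of astrocyte endfeet at blood vessels, Gfap the filament protein that accumulates in reactive astrocytes, and S100b a calcium-binding protein that astrocytes also secrete. In the rat accumbens, uptake by GLT-1 is one of the processes studied for its part in drug seeking after cocaine.

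The animals were Sprague-Dawley rats of 8 weeks in a conditioned place preference experiment, in which a drug is tied to a compartment and the time later spent there is recorded. By their phenotype label they formed 3 groups of 3 rats: Vulnerable rats and Non Vulnerable rats, both given 4 injections of cocaine (20 mg/kg, intraperitoneal), and Saline rats, given 4 injections of physiological serum. Cocaine rats had saline in the opposite compartment in alternating sessions, so every rat was injected with saline as well. Sessions lasted 20 min and were set 6 h apart, and the preference test came the day after the last of them. The series text separates rats that expressed the preference from rats that did not, but the sample labels do not say that these are the Vulnerable and Non Vulnerable groups, and the extraction protocol mentions the caudate putamen beside the accumbens of the tissue label. Each rat was sequenced as 4 technical replicates, which were summed, so n = 3 rats per group. Nothing beyond the rat numbers says that the rats came from separate litters or cages. In bulk tissue fewer astrocytes and less RNA per astrocyte cannot be told apart. Which cells the reads of each gene came from was not measured.

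Summed counts per rat ran from 41213813 to 64081679, and between 4365 and 69090 of them fell on each gene of the set. Within a rat, the spread of technical replicates was close to sampling noise (chi-square per degree of freedom 1.004 to 1.02), whereas rats of a group differed far more, with 51.8 among Vulnerable, 118 among Non Vulnerable and 52.0 among Saline rats. Levels are given as CPM, counts scaled to a common library total, after trimmed-mean (TMM) scaling. The TMM factor, a correction of each rat's total, was 1.08, 0.976 and 1.05 in Vulnerable rats 1 to 3, 0.901, 0.983 and 0.962 in Non Vulnerable rats, and 1.01, 1.01 and 1.04 in Saline rats. Non Vulnerable rat 1 had the lowest factor, and its 10 most counted genes took 18.2% of its counts, against 10.5% to 13.3% in the other 8 rats. CPM is not corrected for transcript length, so levels are compared between rats and not between genes. Markers of other cell types could not be set beside these genes, because none of 109 listed marker and pathway symbols could be matched to a count row.

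Of the uptake genes, Slc1a3 was lower in Vulnerable rats when set against Non Vulnerable rats. Slc1a2 did not pass the test between any pair of groups. Slc1a3 had 867, 781 and 782 CPM in Vulnerable rats 1 to 3, 1146, 947 and 991 CPM in Non Vulnerable rats 1 to 3, and 881, 876 and 811 CPM in Saline rats 1 to 3. All Non Vulnerable rats lay above all other rats, and Vulnerable and Saline rats overlapped. Mean Slc1a3 was 810 ± 49.6 CPM for the Vulnerable group and 1028 ± 104 CPM for the Non Vulnerable group (SD, n = 3 each), a log2 fold change of -0.34 with SE 0.11 and a 95% interval of -0.58 to -0.11 (edgeR, Benjamini-Hochberg adjusted p = 0.0364). In linear terms this is a change of -21.2% in Vulnerable rats.

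Slc1a2 was highest in the Saline group. It had 348, 412 and 404 CPM in Vulnerable rats 1 to 3, 445, 459 and 418 CPM in Non Vulnerable rats 1 to 3, and 530, 548 and 435 CPM in Saline rats 1 to 3. Vulnerable rats lay below all Non Vulnerable and all Saline rats, while Non Vulnerable and Saline rats overlapped through Saline rat 3. The Slc1a2 means were 388 ± 34.8 CPM for Vulnerable, 441 ± 21.0 CPM for Non Vulnerable and 504 ± 60.4 CPM in Saline rats (SD, n = 3 each). Against Saline the log2 fold change of Slc1a2 in Vulnerable rats was -0.38 with SE 0.11 and a 95% interval of -0.63 to -0.12. This interval leaves out 0, but over all genes the edgeR adjusted p was 0.897. In Non Vulnerable against Saline rats Slc1a2 had a log2 fold change of -0.19 (95% interval -0.45 to 0.06, edgeR adjusted p = 0.263), and in Vulnerable against Non Vulnerable rats -0.18 (-0.44 to 0.07, edgeR adjusted p = 0.235).

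**Figure D1:**
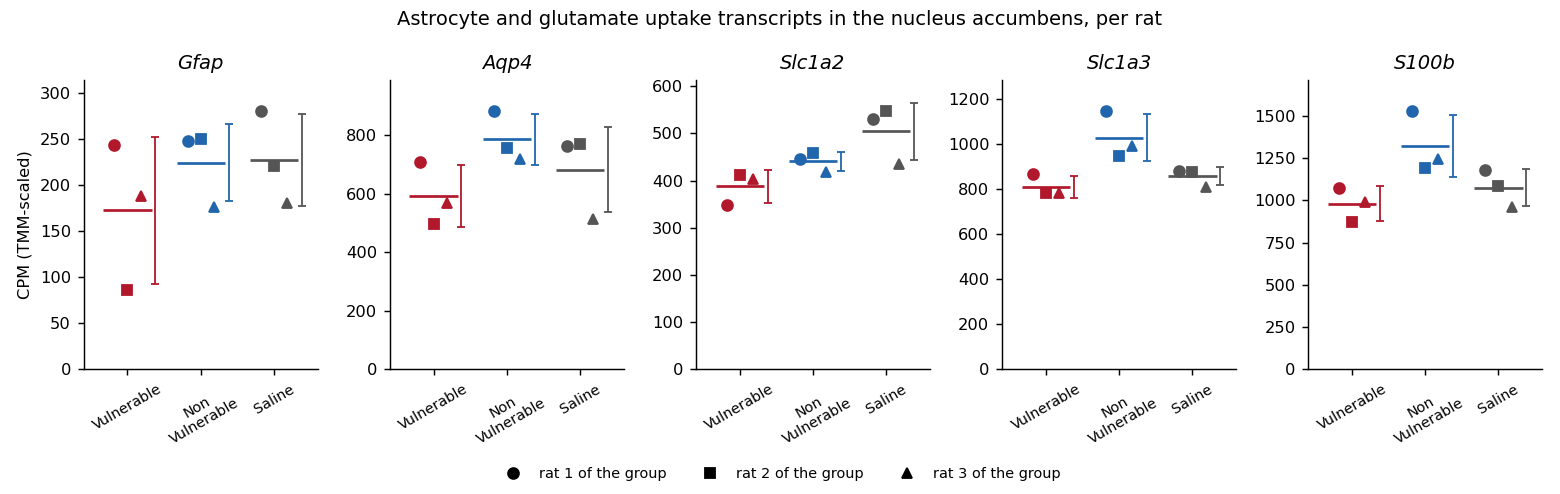
TMM-scaled CPM of each gene (y axis, starting at 0) in each rat of the Vulnerable, Non Vulnerable and Saline groups; symbols give the rat number, horizontal lines the group means and side bars 1 SD (n = 3). Slc1a3 and S100b are higher in all 3 Non Vulnerable rats than in all other rats, Slc1a2 is highest in Saline rats 1 and 2, and Gfap is lowest in Vulnerable rat 2 at 85.8 CPM.

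The balance of the transporters was also compared within each rat, where library size and scaling cancel. The log2 ratio of Slc1a2 to Slc1a3 counts was -1.32, -0.92 and -0.95 in Vulnerable rats 1 to 3, -1.36, -1.05 and -1.25 in Non Vulnerable rats 1 to 3, and -0.73, -0.68 and -0.90 in Saline rats 1 to 3. All 6 cocaine rats lay below all 3 Saline rats, although the closest pair, Vulnerable rat 2 at -0.923 and Saline rat 3 at -0.897, differed by little more than the counting error of 0.012 and 0.013, and single technical replicates of these rats overlapped (-0.960 to -0.891 in Vulnerable rat 2 and -0.908 to -0.889 in Saline rat 3). Because counts also depend on transcript length, only differences of this ratio between rats can be read.

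Vulnerable minus Saline rats, the mean log2 ratio differed by -0.29 (SE 0.14), or -18.5% in linear terms. Non Vulnerable minus Saline rats, it differed by -0.45 (SE 0.11), or -26.7%. In both comparisons the exact two-sided permutation p was 0.1, the smallest that 3 rats against 3 can give, and 0.3 after Benjamini-Hochberg adjustment over the 6 ratio comparisons made. Vulnerable and Non Vulnerable rats overlapped, with a difference of 0.15 (SE 0.16, exact permutation p = 0.3, adjusted 0.45). The differences from Saline kept their direction in each single technical replicate and with each rat of the compared groups left out, running with a rat left out from -0.37 to -0.17 for Vulnerable rats, where the value nearest 0 is the one without Vulnerable rat 1, and from -0.54 to -0.38 for Non Vulnerable rats.

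**Figure D2:**
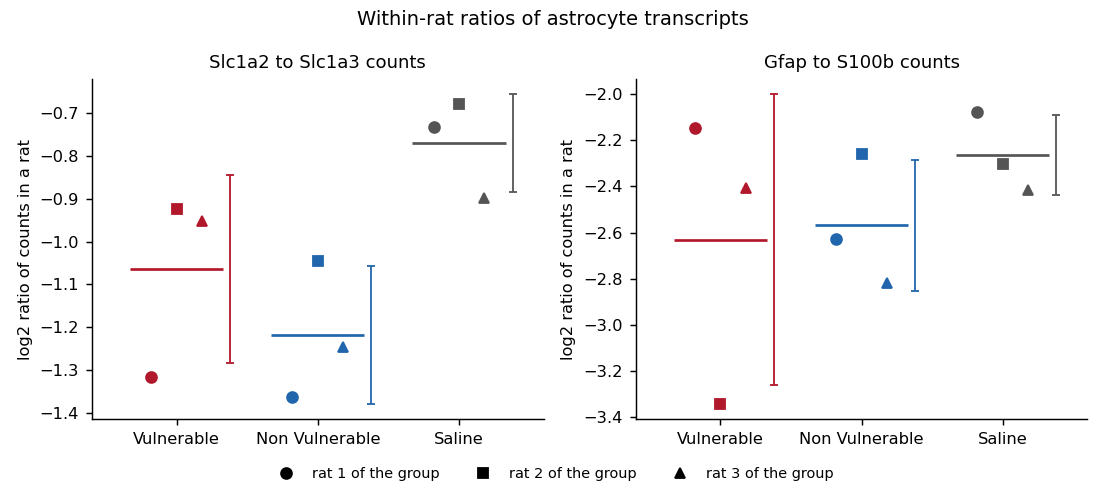
Log2 ratio of counts within each rat (y axis; the axes do not start at 0) for Slc1a2 to Slc1a3 (left) and Gfap to S100b (right) in Vulnerable, Non Vulnerable and Saline rats, with group means and 1 SD (n = 3). On the left all 6 cocaine rats are at or below -0.92 and all Saline rats at or above -0.90; on the right the groups overlap and Vulnerable rat 2 stands lowest at -3.34.

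S100b followed Slc1a3. It had 1076, 871 and 992 CPM in Vulnerable rats 1 to 3, 1529, 1192 and 1242 CPM in Non Vulnerable rats 1 to 3, and 1180, 1086 and 961 CPM in Saline rats 1 to 3. Again every Non Vulnerable rat lay above every other rat, by a small margin over Saline rat 1, and Vulnerable and Saline rats overlapped. S100b averaged 980 ± 103 CPM over Vulnerable and 1321 ± 182 CPM over Non Vulnerable rats (SD, n = 3 each), a log2 fold change of -0.43 with SE 0.14 and a 95% interval of -0.74 to -0.12 (edgeR adjusted p = 0.0420). This is a change of -25.8% in Vulnerable rats. The ratio of S100b to Slc1a3 varied least of the ratios in the 10 pairs of genes in the set, with an SD of 0.081 on the log2 scale over the 9 rats.

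Start-site sequences of the transporter genes and of S100b are shown because Slc1a3 and S100b were called in the same comparison while Slc1a2 had another order of groups. They are the 250 bases before 1 transcript start per gene in RefSeq's promoter table, assembly GRCr8, written 5′ to 3′ on the strand of the gene, at chr2:59557809-59558058 (minus strand) for Slc1a3, chr20:12381082-12381331 (minus strand) for S100b and chr3:109459859-109460108 (plus strand) for Slc1a2. The table holds 3 start windows for Slc1a3, 1 for S100b and 2 for Slc1a2, and the first listed was used; which start was in use in these rats was not measured. For S100b the RefSeq gene span reaches beyond the start that the table uses, so that 78 of the 250 bases, those nearest to that start, lie inside the annotated gene; for Slc1a3 and Slc1a2 the stretch lies outside it. Capitals mark TTGGC on either strand, the half-site of the nuclear factor I proteins, which act in astrocyte differentiation.
Slc1a3: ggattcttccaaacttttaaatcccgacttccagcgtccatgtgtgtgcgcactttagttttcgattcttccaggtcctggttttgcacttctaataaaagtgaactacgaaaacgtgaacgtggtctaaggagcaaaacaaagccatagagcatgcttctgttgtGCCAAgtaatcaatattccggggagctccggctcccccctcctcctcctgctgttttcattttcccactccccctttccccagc
S100b: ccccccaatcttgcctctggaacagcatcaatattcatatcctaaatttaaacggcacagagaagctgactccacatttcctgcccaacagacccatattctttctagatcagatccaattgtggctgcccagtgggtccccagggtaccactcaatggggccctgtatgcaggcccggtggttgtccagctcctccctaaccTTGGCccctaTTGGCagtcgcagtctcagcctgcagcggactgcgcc
Slc1a2: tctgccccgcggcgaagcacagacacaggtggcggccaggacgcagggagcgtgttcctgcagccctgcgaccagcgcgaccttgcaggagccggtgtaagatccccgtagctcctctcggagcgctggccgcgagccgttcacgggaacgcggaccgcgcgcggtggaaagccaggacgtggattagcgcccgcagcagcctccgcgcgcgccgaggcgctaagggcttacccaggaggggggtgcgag
Slc1a3 held 1 such match, read on the opposite strand 84 to 80 bases before the start, and Slc1a2 held none. S100b held 2, from 47 to 43 and from 37 to 33 bases before the start used by the table, both within the 78 bases inside the annotated gene. Of 33465 windows of this length, 40.3% held at least 1. A match is a description of the letters and not a site. The starts of Aqp4, whose group means had the order of Slc1a3 and S100b, and of Gfap were not examined singly. A link between motifs and levels was not tested. A further 4 motifs were searched on both strands and were in none of the 3 stretches. The STAT element, TTCNNNGAA, was in 7.67% of all windows and the AP-1 element, TGANTCA, in 6.34%. The box named for its guanines and cytosines, GGGCGG, was in 30.5% of them and the TATA box, TATAAA, in 12.9%. No matches of different motifs overlapped. The stretch of Slc1a2 differed in composition, with a GC content of 71.2% and 33 CpG dinucleotides, against 48% and 9 for Slc1a3 and 54.8% and 5 for S100b; the medians over all windows were 51.2% and 5.

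Aqp4 showed the same order of group means, Non Vulnerable above Saline above Vulnerable, with more spread. Its levels were 706, 497 and 569 CPM in Vulnerable rats 1 to 3, 882, 755 and 718 CPM in Non Vulnerable rats 1 to 3, and 762, 768 and 515 CPM in Saline rats 1 to 3. Vulnerable and Non Vulnerable rats did not overlap, but the margin between Vulnerable rat 1 and Non Vulnerable rat 3 was small, and Saline rats overlapped both groups. The log2 fold change of Aqp4 in Vulnerable against Non Vulnerable rats was -0.41 with SE 0.19 and a 95% interval of -0.83 to 0.01 (edgeR adjusted p = 0.118); the estimate was close to that of S100b, but its interval reached 0 and Aqp4 was not called.

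Gfap varied most from rat to rat. It had 243, 85.8 and 187 CPM in Vulnerable rats 1 to 3, 247, 249 and 176 CPM in Non Vulnerable rats 1 to 3, and 280, 220 and 180 CPM in Saline rats 1 to 3. The 3 groups overlapped, and Vulnerable rat 2 stood far below the other 8 rats, with 2.84-fold less Gfap than Vulnerable rat 1. The SD of log2(CPM + 1) within groups was 0.51 for Gfap, larger than for 99.2% of the 4609 genes with a mean of at least 50 CPM, whose median was 0.12; it was 0.26 for Aqp4, 0.17 for S100b, 0.13 for Slc1a2 and 0.10 for Slc1a3. Between technical replicates of a rat the coefficient of variation of Gfap was 1.06% to 2.96%, where counting error alone gives 1.68% to 3.03%, so the spread lay between rats.

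With that spread no comparison of Gfap was called. Its log2 fold change was -0.38 in Vulnerable against Non Vulnerable rats (95% interval -1.14 to 0.38, edgeR adjusted p = 0.407), -0.02 in Non Vulnerable against Saline rats (-0.78 to 0.74, edgeR adjusted p = 0.978) and -0.40 in Vulnerable against Saline rats (-1.16 to 0.36, edgeR adjusted p = 0.908). These intervals admit changes of more than 1.5-fold in either direction for Non Vulnerable against Saline rats. Without Vulnerable rat 2 the Vulnerable values were -0.06 against Non Vulnerable and -0.08 against Saline rats.

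The within-rat ratio of Gfap to S100b, a filament gene against the gene of a calcium-binding protein, separated no groups. The log2 ratio was -2.14, -3.34 and -2.40 in Vulnerable rats 1 to 3, -2.63, -2.26 and -2.82 in Non Vulnerable rats 1 to 3, and -2.07, -2.30 and -2.41 in Saline rats 1 to 3. Vulnerable rats spanned the widest range, through rat 2. The difference of means was -0.06 for Vulnerable minus Non Vulnerable rats (SE 0.40, exact permutation p = 0.9), -0.31 for Non Vulnerable minus Saline rats (SE 0.19, exact permutation p = 0.3) and -0.37 for Vulnerable minus Saline rats (SE 0.38, exact permutation p = 0.5). The first of these turned to 0.29 when Vulnerable rat 2 was left out and to 0.09 when Non Vulnerable rat 2 was.

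Between the groups that received the same cocaine schedule, Vulnerable and Non Vulnerable, 2 of the 5 genes were called, Slc1a3 and S100b, both lower in Vulnerable rats. Over all 16029 genes 31.5% were called in this comparison and 16.4% were called as lower, and the count among the 5 genes is to be read against these shares. All 5 genes had negative log2 fold changes, as did 53.1% of all genes, and these 5 signs come from the same rats. The median of the 5 genes was -0.38 where the median over all genes was -0.04. Groups did not overlap for 4 of the 5 genes, with Vulnerable rats lower, against 24.9% of all genes in that direction. That count depended on the scaling. It was 2 (Slc1a3 and S100b) with median-of-ratios scaling, against 22.9% of all genes. Without the 10 most counted genes in the scaling it was the same 2, against 21.5%. It was 1 (S100b) when CPM was taken from total counts without TMM factors, against 11.7% of all genes. This last setting was added after the values were seen.

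The calls of Slc1a3 and S100b stood close to the threshold. Neither was called in any of the 9 fits that left out 1 rat, with log2 fold changes of -0.40 to -0.24 for Slc1a3 and -0.50 to -0.30 for S100b, nearest 0 without Non Vulnerable rat 1, and edgeR adjusted p of 0.0564 to 0.169 and 0.0598 to 0.134. The direction was the same in every fit. With total-count scaling they were -0.21 (edgeR adjusted p = 0.148) and -0.30 (edgeR adjusted p = 0.130); that scaling moved the median over all genes by 0.12, and the median of the 5 genes lay 0.32 below the median of all genes under it, against 0.35 below with TMM. Of all genes, 23.9%, 17.4% or 18.8% were called when Vulnerable rat 1, 2 or 3 was left out, in that order. With Non Vulnerable rat 1, 2 or 3 left out it was 36%, 17.3% or 18.7%. With Saline rat 1, 2 or 3 left out it was 26.9%, 26% or 30.6%. With all 9 rats DESeq2 called Slc1a3 and S100b (DESeq2 adjusted p = 0.00361 and 0.00988) and 37.8% of all genes. Limma voom also called both (limma voom adjusted p = 0.0361 and 0.0426) and 30.4% of all genes. Over the 12 other settings, these tools among them, Slc1a3 stayed called in 6 and S100b in 5.

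**Figure D3:**
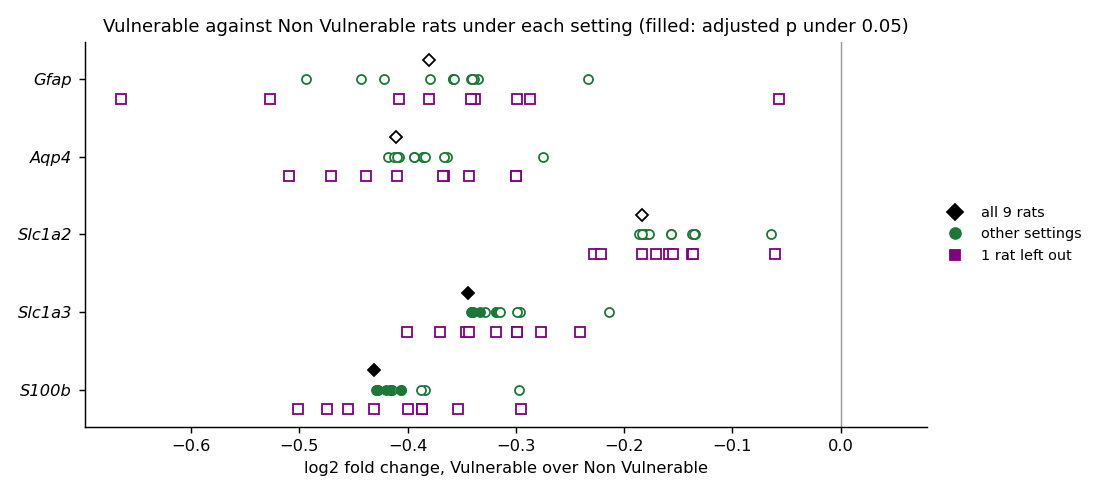
Log2 fold change of Vulnerable over Non Vulnerable rats (x axis) for each gene (y axis) with all 9 rats (diamonds), under the other settings (circles) and with 1 rat left out (squares); filled symbols have an adjusted p under 0.05. Every value is below 0, and none of the squares is filled, those of Slc1a3 running from -0.40 to -0.24.

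Non Vulnerable rats were next set against Saline rats, which were given no cocaine. None of the 5 genes was called by edgeR, where 14.7% of all genes were; 1 of the 5, Slc1a3, had an unadjusted p under 0.05, as did 5244 of the 16029 genes. DESeq2 called 1 of the 5 (Slc1a3; log2 fold change 0.25, DESeq2 adjusted p = 0.0336) and 23.4% of all genes, and limma voom called none of the 5 and 13.5% of all genes. The fitted log2 fold changes were 0.26 for Slc1a3 (95% interval 0.03 to 0.50, edgeR adjusted p = 0.119), 0.30 for S100b (-0.02 to 0.61, edgeR adjusted p = 0.171) and 0.20 for Aqp4 (-0.22 to 0.62, edgeR adjusted p = 0.484). Non Vulnerable rats lay above all Saline rats for 2 of the 5 genes, Slc1a3 and S100b, against 17.4% of all genes. With total-count scaling this held for Slc1a3 only, against 6.74% of all genes. It also held for Slc1a3 only without the 10 most counted genes in the scaling, against 13.3%. With total-count scaling Slc1a2 in Non Vulnerable rats lay below all Saline rats, as did 26.3% of all genes. The share of all genes called by edgeR moved with single rats, to 8.23% when Vulnerable rat 3 was left out of the shared fit. Leaving out Non Vulnerable rat 1, 2 or 3 gave 22.3%, 3.03% or 5.58% in that order, and leaving out Saline rat 1 or 2 gave 5.88% or 1.55%.

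Between Vulnerable and Saline rats none of the 5 genes was called by edgeR, DESeq2 or limma voom, which called 0%, 0.187% and 0% of all genes. By edgeR 1 of the 5 genes, Slc1a2, had an unadjusted p under 0.05, as did 807 of the 16029 genes. All 5 log2 fold changes were negative, as were those of 49.9% of all genes. They ran from -0.40 for Gfap to -0.08 for Slc1a3 (95% interval -0.32 to 0.16), with -0.21 for Aqp4 (-0.63 to 0.21) and -0.13 for S100b (-0.45 to 0.18). Slc1a2 was the 1 gene of the 5 whose groups did not overlap, against 5.15% of all genes lower in this way. This held under all 4 scalings, with 3.64% to 5.47% of all genes lower. The Vulnerable comparison and the Non Vulnerable comparison use the same Saline rats.

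**Figure D4:**
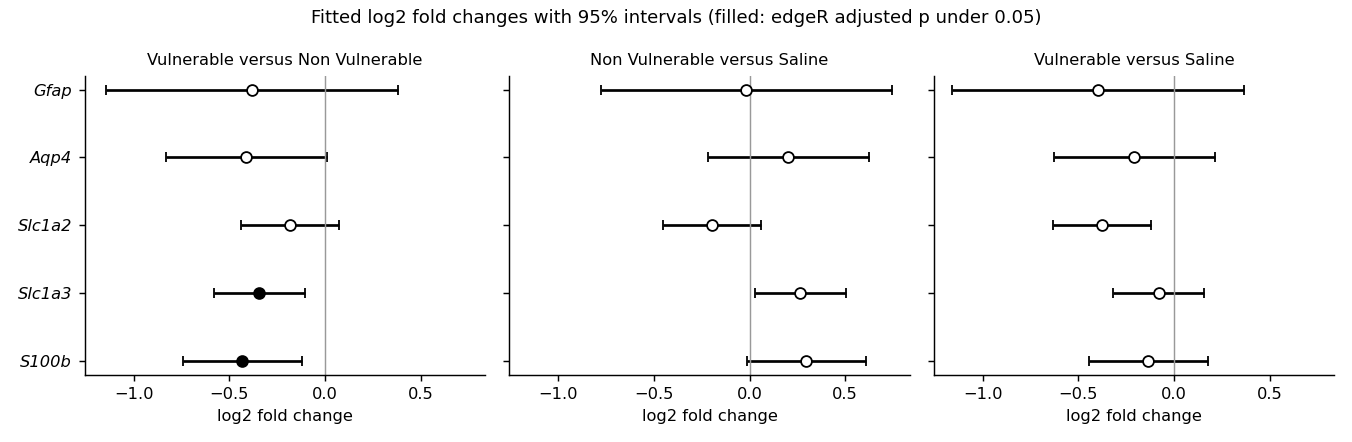
Fitted log2 fold changes (x axis) with 95% intervals for the 5 genes (y axis) in Vulnerable versus Non Vulnerable, Non Vulnerable versus Saline and Vulnerable versus Saline rats (n = 3 each); filled points have an edgeR adjusted p under 0.05. Slc1a3 and S100b are filled at -0.34 and -0.43 in the first panel and no point is filled in the others; the intervals of Gfap are the widest.

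A test for any difference among the 3 groups called none of the 5 genes with edgeR, where 21.3% of all genes were called. The edgeR adjusted p was 0.0796 for Slc1a3, 0.0876 for Slc1a2, 0.0987 for S100b, 0.272 for Aqp4 and 0.596 for Gfap, and 3 of the 5 genes had an unadjusted p under 0.05, as did 6001 of the 16029 genes. DESeq2 called those 3, Slc1a3, Slc1a2 and S100b, and 32.6% of all genes; limma voom called none of the 5 and 19.9% of all genes.

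Vulnerable rat 2 was the lowest of the 9 rats for Gfap, Aqp4, Slc1a3 and S100b but not for Slc1a2, for which Vulnerable rat 1 was lowest. Non Vulnerable rat 1 was the highest for Aqp4, Slc1a3 and S100b, and its low TMM factor raises all its CPM values alike. By total counts without TMM factors it was also the highest for these genes. Its CPM was then 794 for Aqp4, 1032 for Slc1a3 and 1377 for S100b, and the next highest rats had 777, 953 and 1195. Across rats, log2 ratios within pairs varied least over the 9 rats among Slc1a3, S100b and Aqp4, with an SD of 0.081 for Slc1a3 to S100b, 0.13 for Aqp4 to S100b and 0.17 for Aqp4 to Slc1a3. Pairs with Slc1a2 ranged from 0.25 to 0.28 when Gfap was not the partner, and pairs with Gfap from 0.34 to 0.49. Pooled within groups, the SD was 0.083 for Slc1a3 to S100b, 0.14 for Aqp4 to S100b and 0.19 for Aqp4 to Slc1a3. For Slc1a2 it was 0.17 with Slc1a3, 0.20 with S100b and 0.25 with Aqp4, so the order partly changed. Of 9992 other genes with a mean of at least 10 CPM, ENSRNOG00000056836 and ENSRNOG00000013454 followed the mean standardized log2 CPM of the 5 genes most closely over the 9 rats, with Pearson r of 0.983 and 0.980, given as a description of rats that share their groups. The files do not name them; ENSRNOG00000056836 had 26.8 ± 4.28 CPM in Vulnerable, 40.7 ± 5.51 CPM in Non Vulnerable and 34.2 ± 7.80 CPM in Saline rats (SD, n = 3 each).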

How the data were processed

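RNA of the nucleus accumbens was sequenced from 9 rats as 36 libraries, 4 technical replicates per rat. Per the labels' protocols, polyA-selected RNA was made into strand-specific libraries. Tools listed per the submitters' processing notes are bcl2fastq 2.17.1.14, STAR and HTSeq 0.5.3. Genome build, annotation and strand option were not given in these sources. Reads shared with overlapping or antisense genes thus cannot be told apart. What the authors deposited are raw counts of reads for each Ensembl ID, 1 table per library and without normalization.

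Counts of a rat's technical replicates were summed. Genes were kept with filterByExpr (16029 genes), scaled with TMM and fitted over all 9 rats with edgeR 4.0.16 in R 4.3.3 (glmQLFit, robust, a coefficient per group, 6 residual degrees of freedom). Contrasts were tested with glmQLFTest, and p-values were adjusted (Benjamini-Hochberg) across the 16029 genes, with a threshold of 0.05 for a call. Standard errors came from the quasi-likelihood F statistic and 95% intervals from its t distribution. The fit gives each gene 1 spread for all groups. P-values of the fit set a difference between groups against the spread between these rats. Ratios of genes within a rat were compared by exact permutation tests. Alternatives were DESeq2 1.42.0, limma voom (limma 3.58.1), other scalings, no filter, single technical replicates, the rat number as a replicate block, and each rat left out.

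The genes, lists and comparisons were chosen with earlier results of these data known. All 5 genes are named, and the most similar genes are those of highest Pearson r with their mean profile (log2 CPM, prior count 2). A further 10 lists of 109 pathway and marker symbols could not be matched (0 gene IDs paired with a symbol) and were not analysed here. Start-site sequences are from RefSeq, assembly GRCr8, matched by symbol (5 of 5 genes); the build of the counts is not given, so no gene coordinates are printed for them.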

Additional observations from a re-analysis of the deposited data

Results flagged for a closer look

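The departure from Saline rats differed between Vulnerable and Non Vulnerable rats for 2 of the 5 genes, by the test of that difference itself, in which the Saline level cancels; over all genes 31.5% were called in this test, and 16.4% as lower in Vulnerable rats. For Slc1a3 the difference, Vulnerable minus Non Vulnerable, was -0.34 on the log2 scale (edgeR adjusted p = 0.0364), made up of -0.08 in Vulnerable and 0.26 in Non Vulnerable rats. For S100b it was -0.43 (edgeR adjusted p = 0.0420), made up of -0.13 in Vulnerable and 0.30 in Non Vulnerable rats. This is the Vulnerable against Non Vulnerable comparison given above and not a further test. Neither gene was called against Saline in Vulnerable rats (edgeR adjusted p = 0.929 for Slc1a3 and 0.918 for S100b). The same held in Non Vulnerable rats (edgeR adjusted p = 0.119 and 0.171). Non Vulnerable rat 1, whose 10 most counted genes took 18.2% of its counts, had the highest level of both genes. Without it the differences were -0.24 and -0.30 (edgeR adjusted p = 0.0732 and 0.0966). In that fit neither gene was called, while 36% of all genes were, against 31.5% with all 9 rats. Both calls were lost with any 1 of the 9 rats left out, with an edgeR adjusted p of 0.0564 to 0.169 for Slc1a3 and 0.0598 to 0.134 for S100b. The part of that rat's composition in the result was not tested beyond these values. Groups of 3 rats are too small for a test of single outlying rats, which therefore was not made.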

How the results depend on the processing

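The log2 fold changes of the 5 genes in the 3 comparisons kept direction and side of the threshold in 165 of 180 values under other settings and in 115 of 135 with 1 rat left out. Most of these values belong to genes and comparisons without a call. The call of Slc1a3 ended in 6 of 12 other settings and that of S100b in 7 of 12. Both ended in 9 of 9 fits with 1 rat left out. Where a call ended, the cause was not tested. Slc1a3 in Vulnerable against Non Vulnerable rats was no longer called without a filter on low counts (-0.34), with only the compared groups (-0.30), without the 10 most counted genes in the scaling (-0.30), with total-count scaling (-0.21) or from technical replicate a (-0.32) or c (-0.33) alone. S100b was no longer called under the same settings (-0.43, -0.38, -0.39, -0.30, -0.42 and -0.41) or with median-of-ratios scaling (-0.41). Leaving out 1 rat gave -0.40 to -0.24 for Slc1a3 and -0.50 to -0.30 for S100b, none called. DESeq2 called Slc1a3 in Non Vulnerable against Saline rats (0.25) and, for any difference, Slc1a2, Slc1a3 and S100b (DESeq2 adjusted p = 0.0243, 0.00737 and 0.0271). Gfap in Non Vulnerable against Saline rats changed sign, to 0.0054 with the replicate block and within -0.17 to 0.13 with 1 rat left out, and the Gfap to S100b ratio of Vulnerable minus Non Vulnerable rats ran from -0.31 to 0.29.

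Genes called in all, with 1 rat left out, ran from 2798 to 5841 for Vulnerable against Non Vulnerable rats (5050 with all), from 251 to 3615 for Non Vulnerable against Saline rats (2351 with all) and from 1070 to 4228 for any difference (3416 with all). DESeq2 called 3747 for Non Vulnerable against Saline rats, 30 for Vulnerable against Saline rats (0 with edgeR) and 5222 for any difference; 1164 were called for Non Vulnerable against Saline rats with only those groups in the fit, and 1 for Vulnerable against Saline rats from technical replicate b or with total-count scaling. Splits moved with scaling: 2419 higher and 2631 lower genes in Vulnerable against Non Vulnerable rats became 3282 and 896 with total-count scaling, and 1091 and 1260 in Non Vulnerable against Saline rats became 117 and 1857, or 657 and 1541 without the 10 most counted genes. With the rat number as a replicate block 5160 genes were called for Vulnerable against Non Vulnerable rats and 2453 for Non Vulnerable against Saline rats, with no call of the 5 genes changed; same-numbered rats correlated at -0.14 to 0.19 in their deviations, 2 of 9 pairs above 0.1, and a rat matched its own number best in 6 of 18 cases, so the numbers were not taken as pairing. With 3 rats a group the precision is set by the spread between rats: technical replicates of a gene in a rat varied by at most 3.17%.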
